A study of Drosophila melanogaster with 12 samples.

Results

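Transcript levels of 9 large chaperone genes were followed in the larval carcass of Drosophila melanogaster, the body wall of muscle and epidermis left after the gut is taken out. The genes were chosen by name, with earlier results of these data known. They were the Hsp90 gene Hsp83, the Hsp70 class genes Hsp68, Hsc70-1, Hsc70-2, Hsc70-3, Hsc70-4 and Hsc70-5, the chaperonin gene Hsp60, and DnaJ-1. The last belongs to the smaller Hsp40 class and works with Hsp70. Each of the 9 genes has 1 row of its own among the 13650 rows of both tables, which name 13939 genes in all. The smox larvae carried the Smox allele labelled F4 over the Y chromosome, and so were male by genotype, and Smox is the Smad transcription factor of Activin signaling. They were set against w1118 larvae, the wild-type stock of the study, for which the sources used here state no sex. These groups were raised on yeast paste over apple juice plates without further treatment. The baboACT larvae (tub-Gal80ts/+;MhcGal4/baboACT) expressed an activated form of the Activin receptor Baboon under the muscle driver MhcGal4. They were set against MhcGal4 larvae (tub-Gal80ts/+;MhcGal4/+) without the receptor. Both of these genotypes carried the temperature-sensitive Gal4 inhibitor Gal80ts, ate standard vial food and spent the 12 h before RNA extraction at 30 °C, a treatment the labels call a heat shock. All larvae were late in the foraging phase of the third instar, with 3 libraries per group and 12 in all.

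Chaperones bind unfolded or partly folded proteins and, using ATP, help them to fold, to cross membranes or to be passed to degradation. Hsp70 proteins bind short exposed stretches under the control of J-domain partners of the Hsp40 class, and Hsp90 acts later on client proteins such as kinases and steroid hormone receptors. Some of these genes are transcribed at all times and are called cognates (Hsc), and others are induced through heat shock factor when proteins unfold. Muscle makes heavy use of chaperones because myosin folding and the upkeep of contracting sarcomeres depend on them.

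The tables hold 1 FPKM (fragments scaled by transcript length and by the mapped fragments of the library) per gene and group. Levels therefore stand without an SD, and read depth is unknown. Genes count as called, risen or fallen when the authors' deposited table gives a q below 0.05. Where no q is printed for a called gene, it was the lowest of the authors' deposited table, 0.000152 for smox and 0.000217 for baboACT (p = 5e-05). Measured genes are rows of 1 gene that the authors tested and whose mean FPKM was at least 1. Fold changes are ratios of FPKM on the log2 scale, smox over w1118 and baboACT over MhcGal4, with no pseudocount. The experiments were tabulated separately and differ in food and temperature, so levels were compared within an experiment.

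The targeted gene Smox stood at 1.40 FPKM in smox and 23.9 FPKM in w1118. The receptor gene babo stood at 15.6 FPKM in baboACT and 13.2 FPKM in MhcGal4 (q = 0.00424 in the authors' deposited table). The 12 muscle markers summed to between 38439 and 42995 FPKM in the 4 groups, although Act57B is listed at 0 in all groups, Mhc at 0 in smox and MhcGal4, and Mlc2 at 0 in MhcGal4. The 11 epidermis markers summed to 75441 FPKM in smox and 55278 FPKM in w1118, and to 59936 FPKM in baboACT and 45058 FPKM in MhcGal4, with 2 of them listed at 0 in each group. Markers of salivary gland, fat body and midgut differed between the groups of each experiment. Salivary gland markers summed to 32.1 FPKM in smox and 502 FPKM in w1118, and to 2222 FPKM in baboACT and 59.1 FPKM in MhcGal4. Fat body markers summed to 1951 FPKM in smox and 952 FPKM in w1118, and to 771 FPKM in baboACT and 1443 FPKM in MhcGal4. Midgut markers summed to 52.4 FPKM in smox and 436 FPKM in w1118, and to 124 FPKM in baboACT and 381 FPKM in MhcGal4. Hemocyte markers summed to between 235 and 287 FPKM in the 4 groups, and neuron markers to between 4.50 and 5.89 FPKM. The part of these tissues in the chaperone values was not tested, and in whole carcass fewer cells of a type and less RNA per cell cannot be told apart.

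The cognate Hsc70-4, the main Hsp70 of the cytosol, was the most abundant of the 9 transcripts in every group and alone made up 68.6% of their summed FPKM in smox, 58% in w1118, 60.7% in baboACT and 78.2% in MhcGal4. The endoplasmic reticulum gene Hsc70-3 and Hsp83 held the next places in all 4 groups, with Hsc70-3 ahead in smox, baboACT and MhcGal4, and Hsp83 ahead in w1118 (232 FPKM, against 223 FPKM for Hsc70-3). Hsp68 held place 4 in smox, w1118 and baboACT and place 6 in MhcGal4, where the mitochondrial genes Hsp60 and Hsc70-5 stood above it. DnaJ-1, Hsc70-2 and Hsc70-1 held places 7, 8 and 9 in every group. Together the 9 genes summed to 1830 FPKM in smox and 1588 FPKM in w1118 (log2 fold change 0.20), and to 2276 FPKM in baboACT and 2534 FPKM in MhcGal4 (-0.15). With 1 value per group it cannot be said which neighbors in this order differ beyond the spread between libraries.

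**Figure D1:**
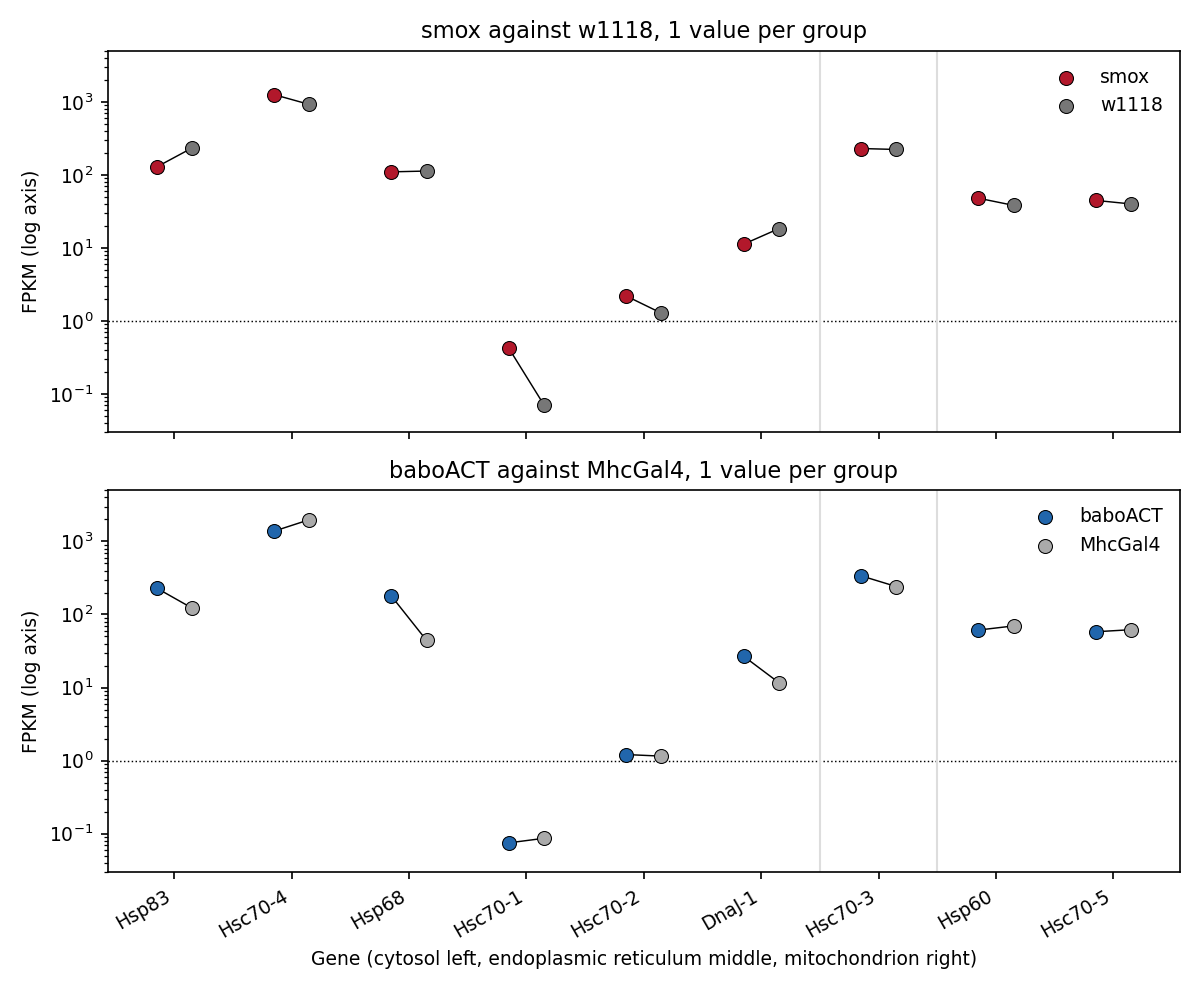
FPKM of the 9 chaperone genes on a log axis, with smox beside w1118 in the upper panel and baboACT beside MhcGal4 in the lower panel; each point is the authors' single value for a group, lines join the 2 groups, and the dotted line marks 1 FPKM. Hsc70-4 is the highest point in every group, from 922 FPKM in w1118 to 1981 FPKM in MhcGal4, and Hsc70-1 is below 1 FPKM throughout.

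Of the 8 chaperone genes measured in smox, 4 rose and 2 fell. Among all 7719 measured genes 58.3% were called, 18.4% higher in smox and 39.9% lower, so 6 of 8 is not far from the share among all genes. In baboACT 4 of 8 rose and 1 fell, where 43.9% of 7754 measured genes were called, 29.2% higher in baboACT and 14.7% lower. Hsc70-1 was not tested by the authors in either table. The median log2 fold change of all measured genes was -0.14 in smox and 0.08 in baboACT, and the 8 chaperone genes had a median of 0.10 in smox and 0.28 in baboACT. None of the 8 changed by as much as 1 on the log2 scale in smox, where 10.1% of all measured genes did, and Hsp68 and DnaJ-1 did so in baboACT, where 7.12% of all measured genes did. The direction of each called chaperone gene was kept under the 3 rescalings tried.

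The gene Hsp83 encodes the fly Hsp90, whose clients include the ecdysone receptor, and lies on 3L from 3193027 to 3197061 (coordinates of the tables, build not named). It fell to 128 FPKM in smox, against 232 FPKM in w1118. The log2 fold change was -0.86, or -0.72 relative to the median gene, and 6.36% of measured genes had a lower value. It rose to 230 FPKM in baboACT, against 123 FPKM in MhcGal4. The log2 fold change of 0.90 was higher than that of 94.2% of measured genes.

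DnaJ-1, on 3L from 5743122 to 5745330, encodes an Hsp40 whose J domain stimulates the ATPase of Hsp70. Its level was 11.3 FPKM in smox and 18.4 FPKM in w1118, a fall by 0.71 on the log2 scale (-0.56 relative to the median gene). It was 26.9 FPKM in baboACT and 11.7 FPKM in MhcGal4, a rise of 1.20 on the log2 scale that exceeded those of 96.1% of measured genes. DnaJ-1 and Hsp83 thus moved the same way as each other in both experiments, down in smox and up in baboACT. The ratio of Hsp83 to DnaJ-1 was 11.4 in smox and 12.7 in w1118, and 8.56 in baboACT and 10.5 in MhcGal4.

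Hsc70-4, on 3R from 11068370 to 11072336, is the constitutive cytosolic Hsp70 that also uncoats clathrin vesicles, and it went the other way. It rose to 1256 FPKM in smox, against 922 FPKM in w1118, a log2 fold change of 0.45 (0.59 relative to the median gene, higher than 87.9% of measured genes). It fell to 1381 FPKM in baboACT, against 1981 FPKM in MhcGal4. That log2 fold change was -0.52, and 6.02% of measured genes had a lower one. The difference of -600.0 FPKM between baboACT and MhcGal4 was larger than the summed rises of the other cytosolic genes, so that the 6 cytosolic genes together stood at 1818 FPKM in baboACT and 2161 FPKM in MhcGal4. Without Hsc70-4 the remaining 5 cytosolic genes summed to 437 FPKM in baboACT and 180 FPKM in MhcGal4 (log2 fold change 1.28), and to 252 FPKM in smox and 365 FPKM in w1118 (-0.53).

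Hsp68, on 3R from 19880140 to 19883029, is a stress-inducible member of the Hsp70 class. In smox it stood at 110 FPKM and in w1118 at 113 FPKM and had no call (q = 0.624 in the authors' deposited table, log2 fold change -0.04). It rose to 179 FPKM in baboACT, against 44.2 FPKM in MhcGal4. The log2 fold change of 2.02 was the largest among the 9 genes in that experiment and higher than that of 97.9% of measured genes. Both of these groups had spent 12 h at 30 °C. The gene CG6000 has the same locus in the tables, with 11.4 FPKM in baboACT and 16.8 FPKM in MhcGal4 (q = 0.413 in the authors' deposited table, not called). How reads of these overlapping genes were shared out is not stated.

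The minor cognates added little. Hsc70-2, on 3R from 8870481 to 8873112, rose to 2.20 FPKM in smox, against 1.28 FPKM in w1118 (q = 0.000292 in the authors' deposited table, log2 fold change 0.78). It stood at 1.21 FPKM in baboACT and 1.15 FPKM in MhcGal4 (q = 0.819 in the authors' deposited table). Hsc70-1, on 3L from 13967277 to 13970879, is listed at 0.426 FPKM in smox and 0.0711 FPKM in w1118, and at 0.0750 FPKM in baboACT and 0.0865 FPKM in MhcGal4. The heat-inducible Hsp70 genes, which respond strongly to heat shock in flies, were hardly detected. No row of the Hsp70A and Hsp70B copies exceeded 0.222 FPKM in smox, 0.116 FPKM in w1118, 0.495 FPKM in baboACT or 0.0973 FPKM in MhcGal4. These copies are nearly identical, and how reads that match several of them were counted is not stated.

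Hsc70-3, on the X chromosome from 11695729 to 11701212, encodes BiP, the Hsp70 of the endoplasmic reticulum and a common readout of the unfolded protein response. It stood at 230 FPKM in smox and 223 FPKM in w1118 and had no call (q = 0.564 in the authors' deposited table, log2 fold change 0.04). It rose to 339 FPKM in baboACT, against 241 FPKM in MhcGal4, by 0.49 on the log2 scale, more than 86.1% of measured genes. Relative to Hsc70-4 it stood at 24.5% in baboACT and 12.2% in MhcGal4.

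Both mitochondrial genes rose in smox. Hsp60, on the X chromosome from 11002506 to 11006341, encodes the chaperonin of the mitochondrial matrix, and Hsc70-5, on 2R from 10140103 to 10143697, encodes mortalin, the Hsp70 that pulls imported proteins into the matrix. Hsp60 rose to 48.0 FPKM in smox, against 38.3 FPKM in w1118 (log2 fold change 0.33, 0.47 relative to the median gene, higher than 84.7% of measured genes). Hsc70-5 rose to 44.8 FPKM in smox, against 40.0 FPKM in w1118 (q = 0.0248 in the authors' deposited table). Its log2 fold change was 0.16, or 0.31 relative to the median gene, higher than 77.8% of measured genes. In baboACT neither was called. Hsp60 stood at 61.2 FPKM in baboACT and 69.8 FPKM in MhcGal4, just short of the threshold (q = 0.0582 in the authors' deposited table), and Hsc70-5 at 58.1 FPKM in baboACT and 61.9 FPKM in MhcGal4 (q = 0.39 in the authors' deposited table). The level of Hsc70-5 was 93.3% of that of Hsp60 in smox and 105% in w1118, and 94.8% in baboACT and 88.8% in MhcGal4. All genes, the X-linked Hsp60 and Hsc70-3 among them, were compared between smox males and w1118 larvae of unstated sex. Sex and genotype therefore cannot be told apart for any gene in that experiment.

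**Figure D2:**
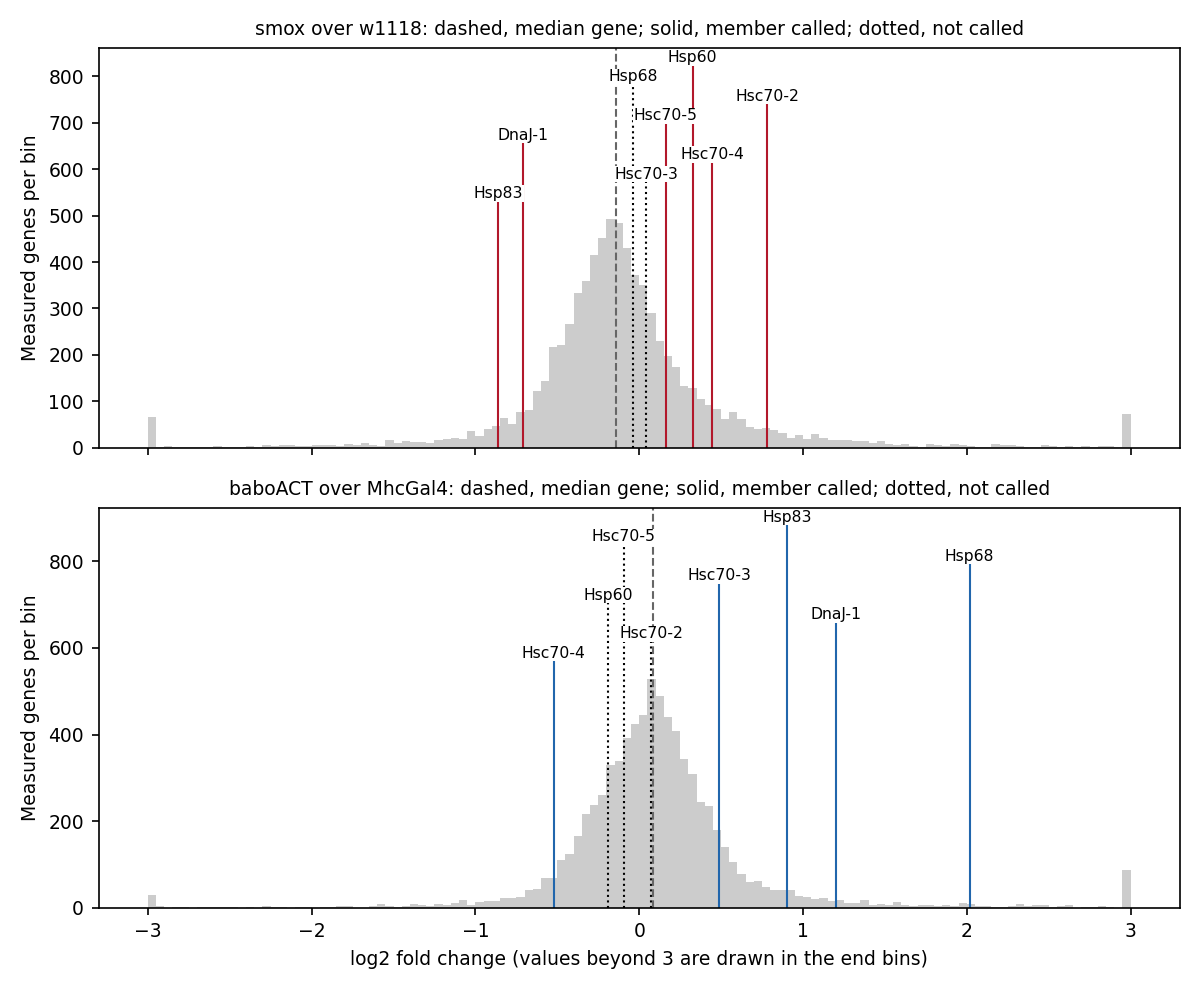
Distribution of log2 fold changes of all measured genes in smox over w1118 (upper panel) and baboACT over MhcGal4 (lower panel), with the 8 measured chaperone genes marked; solid lines are called genes, dotted lines are not, and the dashed line is the median gene. Hsp83 and DnaJ-1 sit at -0.86 and -0.71 in smox and at 0.90 and 1.20 in baboACT, while Hsc70-4 sits at 0.45 in smox and -0.52 in baboACT.

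Ratios between the genes within a group do not change when all values of a group are scaled by the same factor, although quantile normalization can change them. Hsp83 amounted to 10.2% of the Hsc70-4 level in smox and 25.2% in w1118, a change of -1.31 on the log2 scale. In the other experiment it amounted to 16.7% in baboACT and 6.21% in MhcGal4, a change of 1.42. DnaJ-1 amounted to 0.897% of Hsc70-4 in smox and 1.99% in w1118, and to 1.95% in baboACT and 0.59% in MhcGal4. DnaJ-1 was therefore less abundant relative to Hsc70-4 in smox and more abundant in baboACT than in the group each was set against. This ratio covers no other J-domain gene, and those changed in both directions. The more abundant J-domain transcript CG5001 moved the same way as Hsc70-4, with log2 fold changes of 0.21 in smox and -0.42 in baboACT. Hsp68 amounted to 8.76% of Hsc70-4 in smox and 12.2% in w1118, and to 13.0% in baboACT and 2.23% in MhcGal4. No test between libraries stands behind these ratios.

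Calls in both experiments, which share no samples, were made for 3 of the genes, and all 3 changed in opposite directions. Hsp83 and DnaJ-1 were lower in smox and higher in baboACT, as were 19.4% of the 7512 genes measured in both tables. Hsc70-4 was higher in smox and lower in baboACT, as were 5.55%. Of the 2355 genes called in both tables, 79.7% went in opposite directions, so opposite changes were common among all genes. Hsc70-2, Hsp60 and Hsc70-5 were called in smox and not in baboACT, and Hsp68 and Hsc70-3 were called in baboACT and not in smox. Among all genes, 4500 of 7719 measured were called in smox and 3405 of 7754 in baboACT. Only 2355 were called in both tables, so a call in a single table was common among all genes. Whether the responses to the 2 genotypes differ was not tested.

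**Figure D3:**
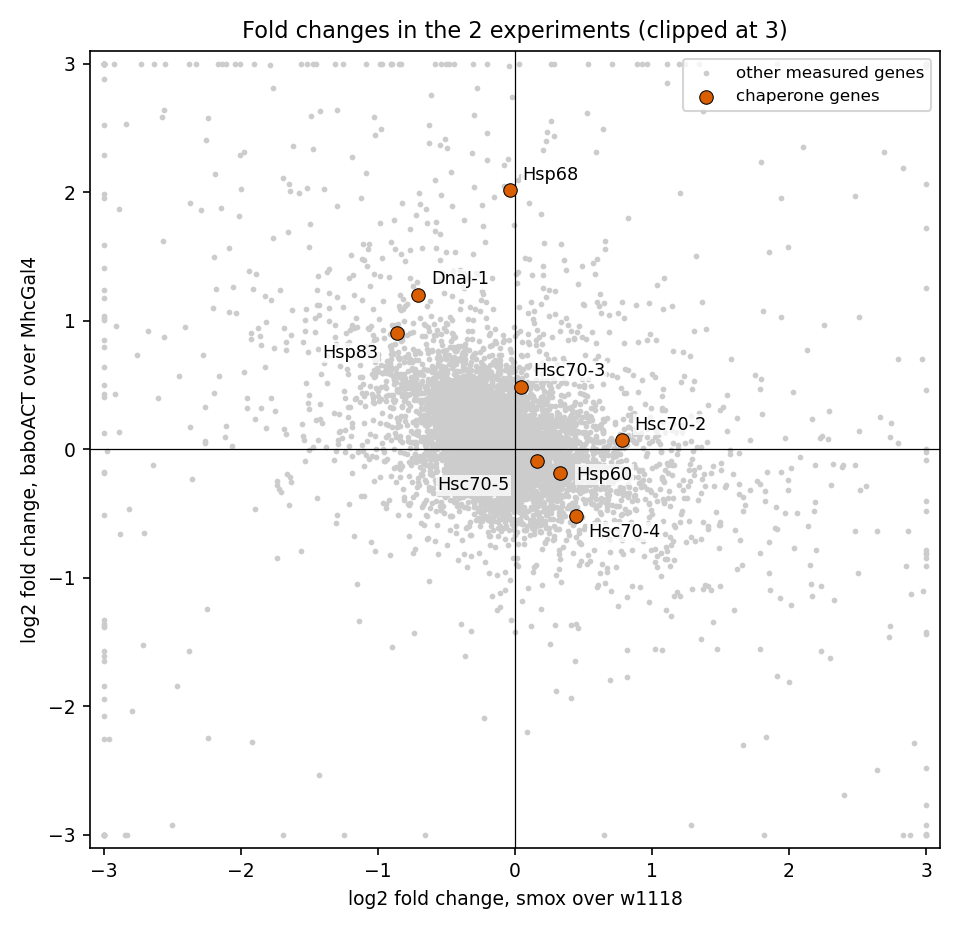
Each point is a gene measured in both tables, with its log2 fold change in smox over w1118 on the x axis and in baboACT over MhcGal4 on the y axis, both clipped at 3; the 8 measured chaperone genes are in orange. Hsp83 (-0.86 and 0.90) and DnaJ-1 (-0.71 and 1.20) lie in the upper left, Hsc70-4 (0.45 and -0.52) in the lower right, and Hsp68 (-0.04 and 2.02) close to the vertical zero line.

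By the distance between pairs of log2 fold changes, 2 comparisons over 4 groups, the genes most like Hsp83 were CG2816 (-0.86 in smox and 0.92 in baboACT), CG12947 (-0.87 and 0.88) and the adenylyl cyclase gene Ac13E (-0.83 and 0.92). Those most like DnaJ-1 were CG2611 (-0.75 and 1.27), the cytochrome P450 gene Cyp9b2 (-0.62 and 1.15) and CG1516 (-0.72 and 1.30), the pyruvate carboxylase gene now named PCB. Those most like Hsc70-4 were milt, a mitochondrial transport adaptor gene (0.45 and -0.52), the extracellular matrix gene Ppn (0.44 and -0.53) and CG3746 (0.46 and -0.54). By the Cuffdiff q of the authors' deposited table, CG12947 had 0.025 in smox, where its level was 0.734 FPKM, against 1.35 FPKM in w1118. CG2611 had 0.00176 in smox and 0.00197 in baboACT by the same q.

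Of 13 measured cochaperones that work with Hsp70 and Hsp90, 2 rose and 10 fell in smox (9 after the median gene is subtracted), beside 18.4% higher and 39.9% lower among all genes. Their median log2 fold change was -0.22, where the median gene lay at -0.14. In baboACT 5 rose and 1 fell, beside 29.2% higher and 14.7% lower among all genes, with a median of 0.12 that became -0.07 under quantile normalization. Hop, the adaptor that passes clients from Hsp70 to Hsp90, fell to 33.0 FPKM in smox, against 41.8 FPKM in w1118, and rose to 84.6 FPKM in baboACT, against 57.0 FPKM in MhcGal4 (log2 fold change 0.57, the largest rise of the list there). The cochaperone gene spag had the largest fall in smox, to 3.65 FPKM, against 5.52 FPKM in w1118. The BAG domain gene stv, which acts with Hsp70 in muscle protein turnover, rose to 60.1 FPKM in smox, against 50.5 FPKM in w1118. Dpit47 fell to 14.7 FPKM in baboACT, against 17.3 FPKM in MhcGal4 (q = 0.0362 in the authors' deposited table). The Hsp90 cochaperone gene CG16817, now named p23, had the highest level of the list in w1118 and in MhcGal4. It fell to 169 FPKM in smox, against 197 FPKM in w1118 (q = 0.00118 in the authors' deposited table), and stood at 196 FPKM in baboACT and 193 FPKM in MhcGal4 (q = 0.837 in the authors' deposited table).

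Among other Hsp70 relatives and J-domain genes the changes were mixed. Of 3 measured Hsp70 and Hsp110 relatives 1 rose and 1 fell in smox, beside 18.4% higher and 39.9% lower among all genes. In baboACT 2 rose and 1 fell, beside 29.2% higher and 14.7% lower among all genes. Hsc70Cb, the Hsp110 that exchanges nucleotide on Hsp70, fell to 57.3 FPKM in smox, against 69.5 FPKM in w1118, and rose to 80.3 FPKM in baboACT, against 57.4 FPKM in MhcGal4. CG2918, now named Grp170 and its counterpart in the endoplasmic reticulum, rose to 38.7 FPKM in smox, against 32.9 FPKM in w1118 (q = 0.000558 in the authors' deposited table), and to 54.0 FPKM in baboACT, against 37.1 FPKM in MhcGal4. CG7182 fell to 12.9 FPKM in baboACT, against 15.2 FPKM in MhcGal4 (q = 0.0269 in the authors' deposited table). Of 27 J-domain genes 4 rose and 7 fell in smox, beside 18.4% higher and 39.9% lower among all genes. Of 28 in baboACT 9 rose and 7 fell, beside 29.2% higher and 14.7% lower among all genes. DnaJ-H fell to 17.3 FPKM in smox, against 65.8 FPKM in w1118, a log2 fold change of -1.93. Its baboACT value, added after it was seen, was a rise to 77.4 FPKM, against 41.4 FPKM in MhcGal4 (log2 fold change 0.90). CG40178, now named l(3)80Fg, rose to 6.09 FPKM in smox, against 2.84 FPKM in w1118, and fell to 4.02 FPKM in baboACT, against 9.55 FPKM in MhcGal4. CG5001, the most abundant J-domain transcript in w1118 and MhcGal4, rose to 134 FPKM in smox, against 115 FPKM in w1118 (q = 0.000934 in the authors' deposited table), and fell to 136 FPKM in baboACT, against 182 FPKM in MhcGal4. CG4164 rose to 39.0 FPKM in baboACT, against 20.8 FPKM in MhcGal4.

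The cytosolic chaperonin TRiC, a ring that folds actin and tubulin, and its delivery partner prefoldin had 13 measured genes. In smox 10 of them fell by small amounts, 0 rose and 3 were not called by the Cuffdiff q of the authors' deposited table, beside 39.9% lower and 18.4% higher among all genes. At an unadjusted p under 0.05 there, 11 were lower and 0 higher. The list median was -0.23, or -0.09 relative to the median gene. The largest fall was in CG8258, now named CCT8, with 45.9 FPKM in smox and 58.6 FPKM in w1118. Cct5, the most abundant, fell to 75.8 FPKM in smox, against 89.3 FPKM in w1118 (q = 0.000429 in the authors' deposited table). In baboACT 1 gene of the list, T-cp1, rose to 71.9 FPKM, against 59.8 FPKM in MhcGal4 (q = 0.00396 in the authors' deposited table), and 12 were not called, beside 43.9% called among all genes. Cct5 stood there at 95.9 FPKM in baboACT and 88.7 FPKM in MhcGal4 (q = 0.304 in the authors' deposited table).

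The endoplasmic reticulum list, which covers folding enzymes, the translocon and the unfolded protein response, rose in baboACT in 14 of 21 genes and fell in 0 by the Cuffdiff q, beside 29.2% higher among all genes. In the authors' deposited table, 15 were higher and 1 lower at an unadjusted p under 0.05. Its median was 0.32, and 0.15 to 0.27 under the rescalings. The disulfide isomerase family gene wbl had the largest rise, to 60.7 FPKM in baboACT, against 17.6 FPKM in MhcGal4 (log2 fold change 1.78), and it fell in smox, to 31.1 FPKM, against 57.4 FPKM in w1118 (-0.88). Gp93, the Hsp90 of this compartment, rose to 167 FPKM in baboACT, against 99.1 FPKM in MhcGal4, and stood at 89.4 FPKM in smox and 91.4 FPKM in w1118 (q = 0.683 in the authors' deposited table). The stress sensor gene Ire1 stood at 17.0 FPKM in baboACT and 18.1 FPKM in MhcGal4 (q = 0.354 in the authors' deposited table), and its target Xbp1 at 248 FPKM in baboACT and 282 FPKM in MhcGal4 (q = 0.0547 in the authors' deposited table), both chosen after their values were seen. In smox 6 of 21 rose and 6 fell, beside 18.4% higher and 39.9% lower among all genes. Xbp1 was among those that rose, to 227 FPKM in smox, against 193 FPKM in w1118 (q = 0.000429 in the authors' deposited table). Ire1 had the largest rise, to 20.6 FPKM in smox, against 12.1 FPKM in w1118. The ATF4 gene crc, the most abundant of the list, fell to 612 FPKM in smox, against 702 FPKM in w1118 (q = 0.002 in the authors' deposited table), and stood at 883 FPKM in baboACT and 971 FPKM in MhcGal4 (q = 0.19 in the authors' deposited table).

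Mitochondrial chaperones and proteases fell in 5 of 9 cases and rose in 1 in baboACT, with a median of -0.19, beside 14.7% lower and 29.2% higher among all genes. In smox 2 of 9 rose and 3 fell, beside 18.4% higher and 39.9% lower among all genes. The J-domain partner of the mitochondrial Hsp70, l(2)tid, fell to 13.3 FPKM in baboACT, against 19.0 FPKM in MhcGal4 (log2 fold change -0.51). CG11267, the small chaperonin that caps Hsp60, was the most abundant and fell in both, to 70.1 FPKM in smox, against 80.7 FPKM in w1118 (q = 0.00312 in the authors' deposited table), and to 111 FPKM in baboACT, against 129 FPKM in MhcGal4 (q = 0.012 in the authors' deposited table). The protease gene HtrA2 fell to 4.30 FPKM in smox, against 7.83 FPKM in w1118, and rose to 10.8 FPKM in baboACT, against 7.79 FPKM in MhcGal4. CG6512, the membrane protease gene now named Afg3l2, rose to 34.8 FPKM in smox, against 27.9 FPKM in w1118.

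Of the heat shock regulators 2 were measured. In smox 1 rose and 1 fell, beside 18.4% higher and 39.9% lower among all genes. In baboACT both rose, beside 29.2% higher and 14.7% lower among all genes. Hsf, the heat shock transcription factor gene, fell to 11.5 FPKM in smox, against 13.6 FPKM in w1118 (log2 fold change -0.24), and rose to 14.1 FPKM in baboACT, against 11.9 FPKM in MhcGal4 (0.25 on that scale, q = 0.0105 in the authors' deposited table). The noncoding heat shock RNA Hsromega rose in both, to 84.2 FPKM in smox, against 72.8 FPKM in w1118 (q = 0.00956 in the authors' deposited table), and to 92.8 FPKM in baboACT, against 67.8 FPKM in MhcGal4. Of 9 small heat shock genes 6 rose and 2 fell in baboACT, beside 29.2% higher and 14.7% lower among all genes, with a median of 1.90. In smox 2 rose and 3 fell, beside 18.4% higher and 39.9% lower among all genes, with a median of 0.07. Among called genes Hsp26 had the largest rise in smox, to 94.3 FPKM, against 48.3 FPKM in w1118 (log2 fold change 0.96). Hsp67Ba had the largest fall, to 3.11 FPKM, against 4.29 FPKM in w1118 (q = 0.00398 in the authors' deposited table). CG7409 had a higher log2 fold change in smox, 2.08, without a call (16.5 FPKM, against 3.90 FPKM in w1118, q = 0.0617 in that table). The row shared by Hsp22 and Hsp67Bb, left out of the counts, stood at 132 FPKM in smox and 39.4 FPKM in w1118. Its log2 fold change was 1.74 (q = 0.000152 in the authors' deposited table). The small heat shock gene l(2)efl was the most abundant, with 3988 FPKM in smox and 3772 FPKM in w1118 (q = 0.24 in the authors' deposited table, not called), and it fell to 5736 FPKM in baboACT, against 7216 FPKM in MhcGal4 (q = 0.000411 in the authors' deposited table). The largest rise in baboACT was in Hsp67Bc, with 5.57 FPKM in baboACT and 0.429 FPKM in MhcGal4, and the largest fall in CG13133, with 1.57 FPKM in baboACT and 2.62 FPKM in MhcGal4 (q = 0.0108 in the authors' deposited table).

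**Figure D4:**
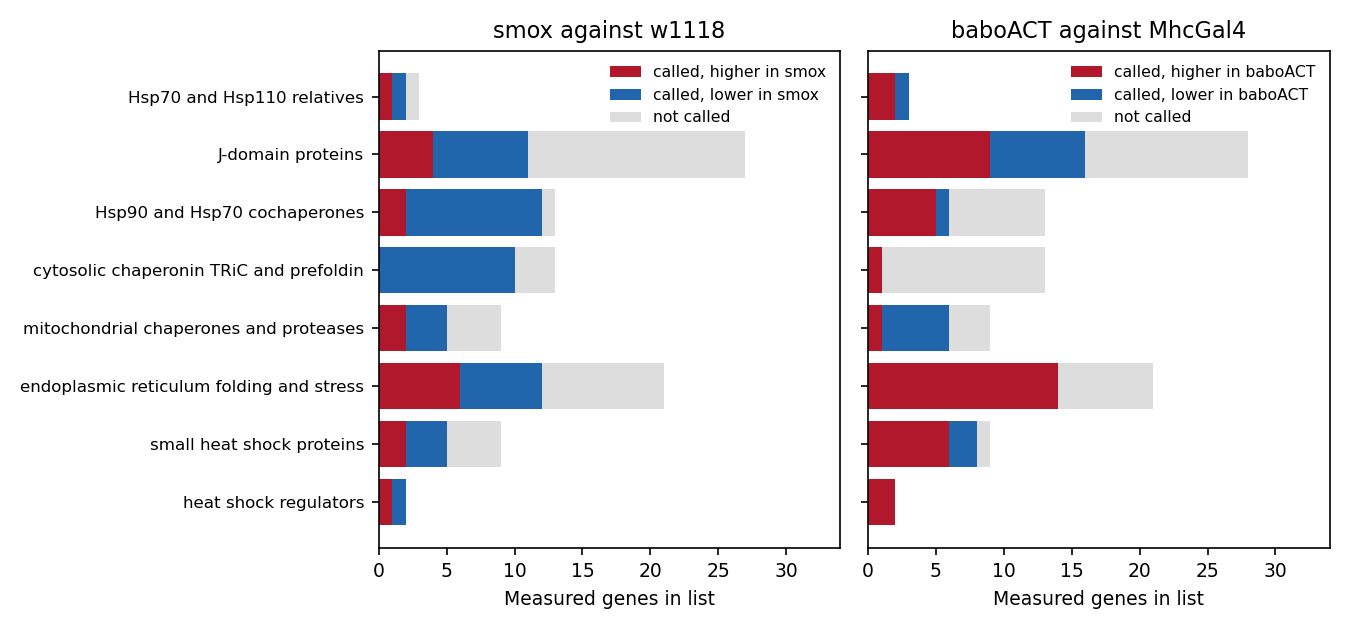
Measured genes of each chaperone list by the authors' call in smox against w1118 (left) and baboACT against MhcGal4 (right); bar length is the number of measured genes, split into called higher, called lower and not called. In smox 10 of 13 cochaperone genes and 10 of 13 TRiC and prefoldin genes are lower, beside 39.9% lower among all genes. In baboACT 14 of 21 endoplasmic reticulum genes are higher, beside 29.2% higher among all genes.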

How the data were processed

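Carcass RNA was extracted with TRIzol and column cleanup for TruSeq RNA libraries, per the labels' protocols. Cufflinks and Cuffdiff are named, with no version, per the submitters' processing notes; aligner, build, annotation and strand setting are not given there. The authors deposited 1 FPKM per gene and group, a test statistic (a score), a p-value and its q-value, and their log2 fold change, where 423 cells of the smox table and 480 of the baboACT table hold spreadsheet error text. How 3 libraries were pooled is not stated, and 0 columns hold single libraries. Whether and how the spread between libraries entered the q-values is not stated, and that spread may be technical.

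Log2 fold changes were recomputed from the deposited FPKM (Python 3.11.15, pandas 2.3.3) and differed from the authors' by at most 0.04 in measured genes. The 366 rows per table that name several genes entered no count except in 1 alternative, and 1 of them is among the Hsp70 rows whose highest level is given. Counting was tested on simulated data whose fold changes and q were set in advance, without noise. That checks the counting code and not the authors' calls. Starts in the tables count from 0, so 1 was added. Members and lists were chosen with earlier results of these data known. Of 133 list names 131 matched a table name, 19 through RefSeq release 6 synonyms; a gene in 2 lists counts under both. Named genes were the 9 members and the 3 genes nearest each member called in both tables. Each list also gave its largest called rise and fall and its most abundant gene in w1118 or MhcGal4. Gp93, Xbp1, CG7409 and the row of Hsp22 and Hsp67Bb were added after their values were seen. So were Hop, Ire1 and DnaJ-H in the experiment the rule did not pick them for. Promoter and protein comparisons were planned and not run, and no sequence was used here.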

Additional observations from a re-analysis of the deposited data

How the results depend on the processing

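No paired analysis was possible because the tables hold 1 value per group, and for the same reason leaving out single libraries and limma were not run. With a further condition of at least 1.5-fold, calls dropped to 3 of the 8 measured chaperone genes in smox, 1 higher and 2 lower. Among all genes 1520 were called there, 19.7% of those measured. In baboACT calls dropped to 3 of 8, all higher, beside 1069 among all genes, 13.8% of those measured. At q under 0.001 there were 2967 calls among all genes in smox (38.4% of those measured) and 2076 in baboACT (26.8%). Among the 8 measured chaperone genes there were 5 in each experiment. Other thresholds and filters moved these counts by less than 1.5 times. Of the 18 fold changes of the 9 genes, 16 kept their sign under 2 pseudocounts, 3 rescalings (without quantile normalization for Hsc70-1) and the authors' own column. The exceptions were not called. Hsp68 in smox went to 0.11 after subtraction of the median gene, 0.064 under quantile normalization and 0.013 after scaling to the sum without the 10 highest rows. Hsc70-2 in baboACT went to -0.0093 after subtraction of the median gene and to 0 under quantile normalization. The log2 fold change of Hsc70-1 in smox kept its sign but went from 2.58 to 0.41 with a pseudocount of 1. These alternatives rescale whole groups and replace no missing replicate, and FPKM gives no depth, so the precision of a level is not known.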
